A study of Mus musculus with 8 samples.

Results

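The DNA methylome of naive CD4 T cells was described from 4 of the 8 whole-genome bisulfite samples of this series, 2 from female and 2 from male mice. Its members were the autosomal CpGs read 5 or more times in both the female and the male T cell data, 18886872 of the 20383623 autosomal CpGs of the mouse reference, and the 2002750 windows of 1 kb that held at least 3 of them. The study isolated T cells and resting B cells from the spleens of C57BL/6J mice aged 6 to 8 weeks and pooled cells over animals. The T cells were depleted with antibodies to CD8a, B220, CD49b, CD11b, Ter-119, CD25 and TCR gamma/delta and then sorted as CD4+, CD44lo and CD25-, and the B cells of the other 4 samples were CD43-. All animals were of this single inbred strain, and the labels name no mutation or treatment. The 2 samples of a group shared 1 data set of CpG levels, so the female and the male T cell values are single measurements that also differ in sex, and replicate and sex differences cannot be told apart. At these CpGs the female T cell data held 17.8 and the male T cell data 17.5 reads per CpG.

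In mammals, cytosines of CpG dinucleotides are mostly methylated, and CpG-rich gene starts and active enhancers are the usual exceptions. Promoters and enhancers of genes that a lineage uses tend to lose methylation as that lineage develops, and naive T cells inherit such marks from the thymus, where the T cell receptor and the CD4 lineage are set. Bisulfite sequencing reads 5-methylcytosine and 5-hydroxymethylcytosine alike, so a methylation level here is the percentage of reads that carry either mark.

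The promoters of the CD3 genes show at the level of single bases what the T cell label means in these data. The CD3 chains and CD247 (CD3 zeta) carry the receptor signal into the cell. Each sequence below is the RefSeq promoter of the GRCm38.p6 build, 300 bases around the gene start, 5′ to 3′ on the strand of the gene, with CpGs in capitals and positions counted from 1 at the 5′ end.
Cd3d, chr9:44981536-44981835, plus strand: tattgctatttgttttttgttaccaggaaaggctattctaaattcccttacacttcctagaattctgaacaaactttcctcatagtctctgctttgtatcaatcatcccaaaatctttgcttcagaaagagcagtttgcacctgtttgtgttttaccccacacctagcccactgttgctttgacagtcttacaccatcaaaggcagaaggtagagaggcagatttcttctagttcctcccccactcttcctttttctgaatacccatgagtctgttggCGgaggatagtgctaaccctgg
Cd3e, chr9:45009562-45009861, minus strand: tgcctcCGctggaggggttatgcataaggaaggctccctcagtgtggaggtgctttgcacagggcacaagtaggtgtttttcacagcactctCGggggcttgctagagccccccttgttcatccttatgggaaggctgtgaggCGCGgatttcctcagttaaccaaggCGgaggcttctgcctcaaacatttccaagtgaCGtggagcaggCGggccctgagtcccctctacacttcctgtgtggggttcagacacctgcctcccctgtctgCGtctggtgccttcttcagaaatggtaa
Cd3g, chr9:44980382-44980681, minus strand: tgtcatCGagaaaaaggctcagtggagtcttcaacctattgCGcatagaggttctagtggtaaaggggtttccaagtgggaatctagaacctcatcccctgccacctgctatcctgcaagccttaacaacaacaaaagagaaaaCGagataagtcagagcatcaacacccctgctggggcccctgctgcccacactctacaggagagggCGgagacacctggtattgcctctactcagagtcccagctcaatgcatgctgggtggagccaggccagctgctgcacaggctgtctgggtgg
Cd247, chr1:165788431-165788730, plus strand: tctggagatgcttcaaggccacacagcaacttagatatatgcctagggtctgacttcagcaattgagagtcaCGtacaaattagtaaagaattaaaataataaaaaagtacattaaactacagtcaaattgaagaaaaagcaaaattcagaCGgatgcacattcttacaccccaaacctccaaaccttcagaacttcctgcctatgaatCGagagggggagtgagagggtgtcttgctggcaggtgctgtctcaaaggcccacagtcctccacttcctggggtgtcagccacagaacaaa

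The single CpG of the Cd3d sequence was methylated in 0% of 12 reads in female and 0% of 21 reads in male T cells, against 92.9% of 14 reads in female and 83.3% of 12 reads in male B cells. Over the 8 CpGs of Cd3e the level was 0% in female and 0.559% in male T cells, and 82.5% and 86.8% in B cells. Every CpG of Cd3e was at 0% in both T cell data sets except the one at position 7, which was at 5.88% in male T cells.

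The 4 CpGs of Cd3g were at 1.54% and 0% in female and male T cells and at 68% and 80.6% in B cells, where the CpG at position 145 was an exception at 10% and 12.5%. The 3 CpGs of the Cd247 sequence were at 0% and 2.78% in T cells and at 37% and 25.8% in B cells, and the CpG at position 152 was at 0% in all 4 data sets. The contrast between the cell types was thus smaller close to the Cd247 start than over the wider promoter given further on.

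A second set of sequences shows CpGs away from any gene start that were methylated in B cells and mostly not in T cells. They come from the 5 windows of low T cell methylation, with 15 or more CpGs and more than 2 kb from any start, where the smaller of the female and the male differences between B and T cells was largest. For each window, 200 bases of the GRCm38.p6 plus strand are printed, with CpGs in capitals.
Satb1, chr17:51803671-51803870: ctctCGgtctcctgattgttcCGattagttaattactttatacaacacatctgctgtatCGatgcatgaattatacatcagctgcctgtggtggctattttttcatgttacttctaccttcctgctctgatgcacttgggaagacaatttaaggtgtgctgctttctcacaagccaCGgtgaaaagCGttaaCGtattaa
Cd247, chr1:165793401-165793600: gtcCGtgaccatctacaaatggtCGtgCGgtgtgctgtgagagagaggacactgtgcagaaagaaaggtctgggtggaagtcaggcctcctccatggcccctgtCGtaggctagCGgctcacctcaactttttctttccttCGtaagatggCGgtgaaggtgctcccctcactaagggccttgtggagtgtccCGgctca
Grap2, chr15:80576391-80576590: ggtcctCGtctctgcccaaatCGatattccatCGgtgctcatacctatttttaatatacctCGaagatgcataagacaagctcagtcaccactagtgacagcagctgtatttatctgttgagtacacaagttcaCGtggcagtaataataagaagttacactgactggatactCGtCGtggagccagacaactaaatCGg
Cdyl2, chr8:116591441-116591640: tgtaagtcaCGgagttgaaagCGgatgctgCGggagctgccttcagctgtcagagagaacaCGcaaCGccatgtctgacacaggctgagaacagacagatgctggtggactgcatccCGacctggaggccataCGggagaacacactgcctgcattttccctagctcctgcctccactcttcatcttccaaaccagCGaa
Near Map3k20, chr2:72282001-72282200: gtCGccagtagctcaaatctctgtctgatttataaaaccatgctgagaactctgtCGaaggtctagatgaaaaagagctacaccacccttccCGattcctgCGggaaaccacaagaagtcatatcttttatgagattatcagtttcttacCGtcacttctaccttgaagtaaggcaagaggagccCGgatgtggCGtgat

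The Satb1 stretch lies in an intron beside a coding exon of the same window, and SATB1 is a chromatin organiser of thymocytes. The Cd247, Grap2 and Cdyl2 stretches are intronic, and GRAP2 (GADS) is an adaptor of the T cell receptor pathway. The last stretch is intergenic, 2637 bp from the start of the kinase gene Map3k20. Over the whole windows the female and male T cell levels were 12.8% and 8.98% in Satb1, 13.2% and 12.9% in Cd247, 10.4% and 12.3% in Grap2, 11.1% and 14.6% in Cdyl2, and 12.7% and 14.4% near Map3k20. The B cell levels of these 5 windows lay between 93.9% and 96.7%.

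Within a stretch the T cell CpGs were not uniform. In Grap2 the CpG at position 22 was at 47.4% in female and 64.7% in male T cells, whereas those at positions 135, 174 and 177 were at or under 5.88% in both. In Cdyl2 the first 5 CpGs were at 0% in both T cell data sets, and the CpG at position 134 was at 22.2% and 28%.

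Over all member CpGs, 79.5% of the T cell reads were methylated, 79.48% in female and 79.60% in male cells. Most CpGs sat at an end of the scale. Of the single CpGs, 81.8% were at 70% or more, 8.68% were under 10%, 2.18% were from 10% to under 30%, and 7.31% were from 30% to under 70%. At the extremes, 19% of CpGs were at 100% and 6.16% at 0%.

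The 1 kb windows were more uniformly high than the CpGs, with a median level of 90.9%. Unmethylated windows (under 10%) numbered 25709, or 1.28%. Low windows (10% to under 30%) numbered 24517, or 1.22%, and partly methylated windows (30% to under 70%) numbered 128564, or 6.42%. The remaining 1823960 windows, or 91.1%, were high. The plot of window levels shows a tall peak near full methylation and a small peak at 0% to 2%. Between them the counts were lowest near 20% and climbed from there towards the tall peak.

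**Figure D1:**
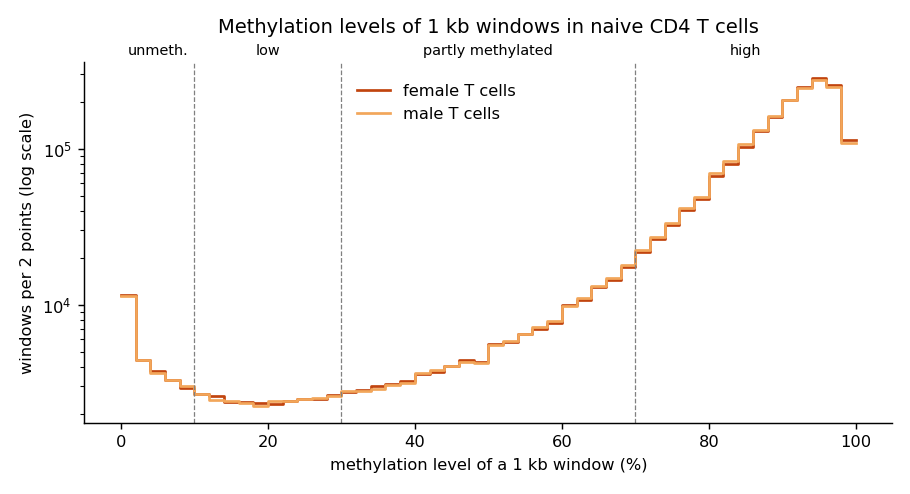
Methylation levels of 2002750 autosomal 1 kb windows in naive CD4 T cells. The horizontal axis is the level of a window in percent, the vertical axis the number of windows per 2 points on a log scale, and the lines are the female and the male T cell data. Both lines have a small peak at 0 to 2% (11532 and 11369 windows) and a minimum near 20%, then climb to a peak of 282845 and 276574 windows at 94 to 96%. Dashed lines mark the limits of the 4 classes.

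Most windows kept their class from one sex to the other. Of the 25955 windows unmethylated in female T cells, 92.8% were unmethylated in male T cells, where their mean level was 3.78%. Of the 24713 windows low in female cells, 78.7% were low in male cells (mean 21.1%), and of the 133422 partly methylated ones 75.5% were again partly methylated (mean 58.8%). High windows kept their class in 98.3% of cases. The female and the male level differed by 20 points or more in 7680 windows (0.383%), and in 0 unmethylated windows. The mean squared difference between the sexes was 1.24 times the value that counting error alone gives over all windows, 1.90 times in unmethylated windows, 2.36 times in low windows and 1.72 times in partly methylated windows.

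Unmethylated windows were mainly gene starts. Of them 73.8% lay within 1 kb of an annotated transcript start, against 4.59% of all windows, and they held a median of 45 CpGs. Their mean level was 3.40% in female and 3.49% in male T cells. Low windows were spread over several places, with 33.9% at starts, 29.8% in introns and 27.4% between genes, and had a median of 15 CpGs and mean levels of 19.9% and 20.1%. Of partly methylated windows 9.90% lay at starts, 36.9% in introns and 45.3% between genes, against 4.59%, 37.7% and 47.9% of all windows, and they had a median of 8 CpGs and mean levels of 56.5% and 56.6%. Most low and partly methylated windows therefore lay outside gene starts. Both were still found at starts more often than all windows, low windows at 33.9% and partly methylated ones at 9.90% against 4.59%.

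Seen from the side of the gene starts, methylation in T cells followed the number of CpGs. Of the 91873 windows within 1 kb of a start, 20.6% were unmethylated, 9.05% low, 13.8% partly methylated and 56.5% high. At starts with 41 or more CpGs in the window, 87.2% were unmethylated, against 30.3% with 21 to 40 CpGs. More than 2 kb from any start, CpG-rich windows were mostly methylated. Of the 5357 such windows with 41 or more CpGs, 23.5% were unmethylated and 61.8% high. Unmethylated windows made up 0.642% of exonic, 0.396% of intronic and 0.260% of intergenic windows.

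**Figure D2:**
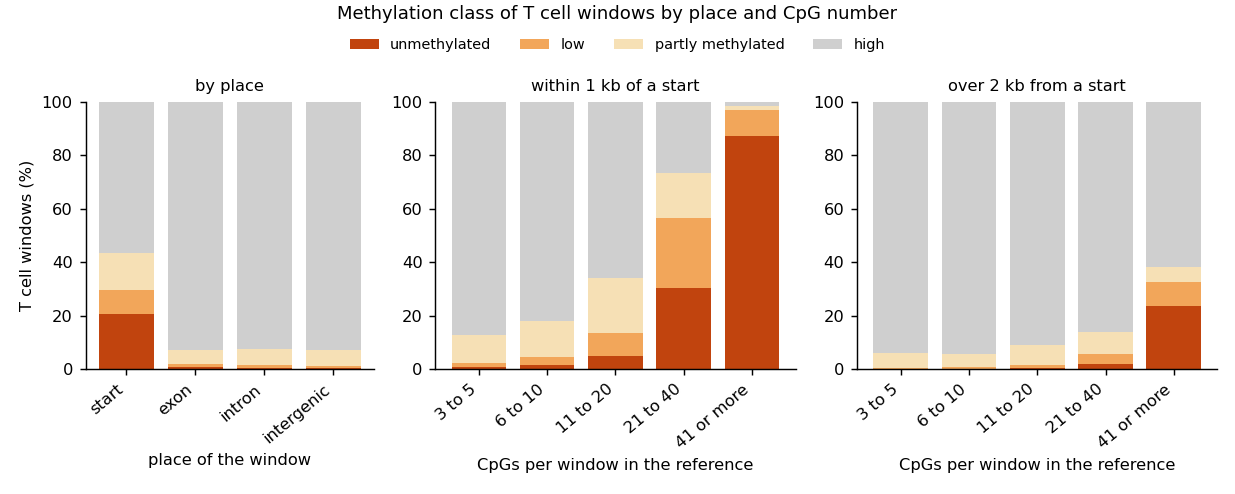
Share of T cell windows in each methylation class, in percent (vertical axes), by place in the annotation (left), by CpGs per window within 1 kb of a transcript start (middle) and more than 2 kb from any start (right). The stacked bars add up to 100%. The unmethylated share reaches 87.2% at starts with 41 or more CpGs and 23.5% away from starts at the same CpG number, and is 20.6% over all windows at starts.

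The chromosomes differed in level by a few points. The lowest were chromosome 11 at 75.4% in female and 75.6% in male T cells and chromosome 17 at 75.9% and 76%, and the highest was chromosome 18 at 81.3% and 81.5%. Unmethylated windows made up 2.10% of chromosome 11 and 0.955% of chromosome 18. In 100 kb bins with 500 or more CpGs the median level was 83.9%, 90% of the 17537 bins lay between 60.8% and 91.9%, and 200 bins were under 50%.

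The lowest bins held clusters of developmental regulators. The bin at chr15:102900001-103000000, with 8 Hoxc genes from Hoxc13 to Hoxc6, which pattern the body axis, was at 10.5% in female and 11.1% in male T cells and at 10.4% and 9.91% in B cells. The bin at chr2:74600001-74700000, with Evx2 and 5 Hoxd genes, was at 19.1% and 19.4%, and that at chr9:91300001-91400000, with the neural factors Zic1 and Zic4, at 23.6% and 23.9%. The other low bins held Gm36079 and Gm21188 on chromosome 13 (17.2% and 18%) and no protein-coding gene on chromosome 17 (26.4% and 22.8%). That last bin had 863 and 776 reads per CpG, and 59.4% of its windows were mostly repeat-masked sequence. The 5 highest bins, at 96.3% to 96.9% in both T cell data sets, held no protein-coding start and lay inside Birc6, Cspp1 and Arfgef1, Arhgap15 (2 bins) and Akap9 and Cyp51.

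To place T cell levels against another lymphocyte, the same windows and promoters were compared with the resting B cells. A window or promoter (1 kb to either side of the gene start) was called where a quasi-binomial model with terms for cell type and sex gave an adjusted p under 0.05 and the mean T minus B difference was 20 points or more. Of 1950708 windows, 23209 were lower in T cells (1.19%) and 18222 higher (0.934%), and 18601 of the lower ones were lower by 20 points in each sex. With a dispersion prior from all windows the counts were 15303 and 11805. Of 29928 promoters, 331 were lower in T cells (1.11%) and 213 higher (0.712%). The windows lower in T cells had mean levels of 46.2% and 46.3% in T cells and 81.6% and 81.3% in B cells, and 53.1% were intronic.

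By T cell class, 16.1% of low windows and 12.7% of partly methylated windows were lower in T cells than in B cells, against 4.69% of unmethylated and 0.124% of high windows. Since the model used the levels that define the classes, these shares are descriptions. Read in male cells alone, windows chosen as low in female T cells averaged 21.1% in T and 28.2% in B cells. Of them 16% were lower in T cells by 20 points and 1.14% higher. Windows chosen as high in female T cells went the other way, 0.362% lower and 0.992% higher. A choice made on the T cell level leaves low windows little room to be higher, so these values are descriptions as well. The shares called lower in T cells also differed by place. Of unmethylated windows, 1.14% were lower in T cells at starts and 15.8% more than 2 kb away, and of low windows 4.77% and 22.6%.

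The longest unmethylated stretches of the T cell genome were at transcription factors of T cells. Adjacent unmethylated windows formed 16708 runs, of which 10386 were a single window, 219 were 5 kb or longer and 12 were 10 kb or longer. All 12 of the longest held at least 1 annotated transcript start, against 54.1% of the runs of 1 kb. The order was Ikzf1 (15 kb), Lef1 and Ets1 (14 kb each), Tcf7 and Satb1 (13 kb each) and Bcl11b (12 kb), followed by 6 runs of 10 kb at Tfap2d, Cytip, Pou3f2, Barhl2, Osr2 and a second position in Satb1.

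The Ikzf1 run covered chr11:11685001-11700000 and was at 1.29% in female and 0.972% in male T cells and at 10.3% and 9.52% in B cells. IKAROS, its product, serves all lymphoid cells. The run of Lef1, a TCF/LEF factor of early T cells, covered chr3:131106001-131120000 at 0.831% and 0.920%, with 18.1% and 15.4% in B cells. That of Tcf7, which encodes TCF1, covered chr11:52271001-52284000 at 0.734% and 0.923%, with 46.3% and 46.6% in B cells. The Bcl11b run, at the gene for a factor that commits thymocytes to the T lineage, covered chr12:107995001-108007000 at 2.04% and 2.40%, with 23.4% and 21% in B cells.

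The runs of Ets1 and Satb1 lay inside the genes, at starts of shorter annotated transcripts. The Ets1 run, chr9:32695001-32709000, was at 0.455% in female and 0.297% in male T cells and at 27.1% and 22.5% in B cells. The longer Satb1 run, chr17:51816001-51829000, was at 0.558% and 0.730% in T cells and at 84.2% and 83.7% in B cells, and the second, chr17:51805001-51815000, at 0.430% and 0.397% against 34.5% and 37.3%. All 13 windows of the longer Satb1 run and 6 of the 10 of the second were called lower in T cells. So were 11 of the 14 of the Ets1 run and 12 of the 13 of the Tcf7 run. The share was smaller in the runs of Ikzf1 (4 of 15), Lef1 (6 of 14), Bcl11b (6 of 12) and Cytip (4 of 10). Of all unmethylated windows 4.69% were called lower, and of those more than 2 kb from a start 15.8%.

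Not all long runs belonged to lymphocyte genes. Those at Tfap2d, Pou3f2, Barhl2 and Osr2, regulators of development in other organs, were at 4.26% to 7.92% in T cells and at 3.73% to 7.78% in B cells, and 0 of their windows were called. When low windows were allowed into a run, the longest were 38 kb in Ets1 (4.87% and 4.01% in T cells, 53.5% and 50.3% in B cells), 33 kb at the eye regulator Pax6 (8.39% and 8.45% against 7.36% and 7.65%) and 32 kb over the T cell receptor alpha locus from Traj27 to Trac (14.6% and 15.7% against 91.9% and 91.3%).

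All 5 genes of the receptor complex and coreceptor had promoters lower in T cells than in B cells, against 1.11% of all promoters. Cd3d was at 8.33% in female T, 5.87% in male T, 95.5% in female B and 95.3% in male B cells, a mean difference of -88.3 points (adjusted p = 3.53e-07, quasi-binomial F test with limma dispersions). Cd3e was at 3.45% and 1.87% in T cells and 83.4% and 86.6% in B cells (-82.3 points, adjusted p = 3.20e-07 by the same test). Cd3g was at 5.52% and 5.48% against 88.9% and 86.6%, and its promoter overlaps that of Cd3d, so the pair is not independent.

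Cd247 was at 2.67% and 2.73% against 86.3% and 83% (-82 points, adjusted p = 3.20e-07 by the same limma-based test). Cd4, the coreceptor by which the cells were sorted, was higher than the CD3 genes at 20% in female and 14.9% in male T cells, against 73.3% and 70.2% in B cells (-54.3 points, adjusted p = 2.81e-06, same limma-based test). Inside these genes, more than 2 kb from any start, 56 of 116 windows (48.3%) were lower in T cells, against 1.65% over all protein-coding genes. Cd247 held 48 of the 56, while 0 of 5 windows in Cd3e and 1 of 8 in Cd3g were lower.

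**Figure D3:**
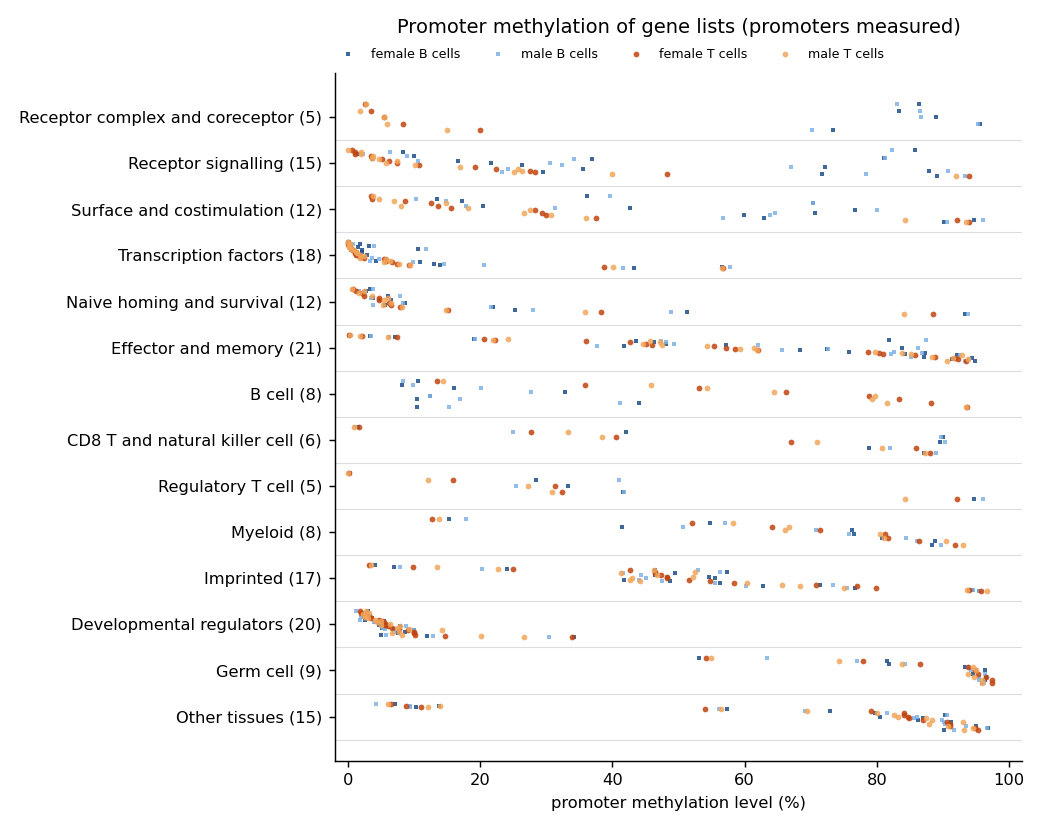
Promoter methylation level in percent (horizontal axis) of the genes of 14 of the 15 lists, all but erythroid and platelet genes (vertical axis, number of promoters measured in brackets). Each gene has 4 points on a line of its own, circles for female and male T cells and squares for female and male B cells. T cell circles of the receptor complex sit at 1.87% to 20% with the B cell squares at 70.2% or above, most transcription factors and developmental regulators sit under 10% in both cell types, and germ cell genes sit mostly above 90%.

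Among kinases and adaptors downstream of the receptor, some promoters were lower in T cells than in B cells and others were not called. Of 15 measured, 6 were lower in T cells and 0 higher, against 1.11% and 0.712% of all promoters. The median T cell level was 6.78%. Themis, which tunes receptor signals during thymic selection, was at 0.699% and 0% in T cells and 85.8% and 82.3% in B cells.

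Zap70, the kinase recruited to the CD3 chains, kept 27.6% and 26.3% in T cells against 87.8% and 90.7% in B cells, and Lck, the kinase bound to CD4, 19.2% and 16.9% against 72.1% and 67%. The kinase Txk was at 48.3% and 39.9% against 71.7% and 78.4%, and the adaptor Skap1 at 5.24% and 4.70% against 36.9% and 34.2%. These promoters were lower in T cells in both sexes, and the T cell levels they reached ran from 0% in Themis to 48.3% in Txk. The Txk difference of -31.0 points was -16.9 points, short of 20, where 10 reads per CpG were required.

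Some signalling promoters did not separate the cell types. The adaptor gene Lat was at 28.4% and 25.1% in T cells and at 29.5% and 23.2% in B cells, and Sla, a negative regulator of receptor signalling, was at 93.9% and 91.9% against 89.1% and 93.3%. Inside the genes of this group, 171 of 1199 windows (14.3%) were lower in T cells, against 1.65% over all protein-coding genes, among them 35 of 120 in Prkcq, the protein kinase C of the immune synapse. Another 38 (3.17%) were higher in T cells, against 1.19% over all protein-coding genes, and Skap1 had 14 higher and 6 lower.

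Of 12 surface and costimulatory genes, 6 had promoters lower in T cells and 0 higher, against 1.11% and 0.712% of all promoters. The median T cell level was 22.4%. The largest difference was at Cd5, an inhibitor of receptor signals, at 12.6% and 14.8% in T cells and 70.4% and 70.3% in B cells. The adhesion receptor Cd226 was at 28.3% and 27.5% against 76.7% and 80% over only 3 CpGs. Cd6, a scavenger-type receptor related to CD5, was at 29.4% and 26.6% against 70.6% and 64.6%.

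The costimulator Cd27 was at 3.50% and 3.75% against 36.2% and 39.7%, and the adhesion molecule Cd2 at 30.02% and 30.7% against 59.9% and 63.8%. Of these called promoters, only Cd27 was under 10% in both T cell data sets. Cd28, the main costimulator of naive T cells, was high at 94% and 93.4% in T cells and 90.1% and 90.7% in B cells. Inside the genes of this group, 48 of 221 windows (21.7%) were lower in T cells and 3 (1.36%) higher, against 1.65% and 1.19% over all protein-coding genes. Cd28 held 11 of the 48.

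The promoters of T cell transcription factors were mostly unmethylated in T cells. Over all 20227 protein-coding promoters 44% were unmethylated, 17.9% low, 8.57% partly methylated and 29.5% high in T cells, with a median of 13.2%, and 100 were lower than in B cells and 93 higher. Of the 18 promoters of T cell factors 16 were unmethylated, the median T cell level was 1.82%, and 0 were called in either direction, a count close to the share called over all protein-coding promoters. Foxo1, a regulator of quiescence and homing, was lowest at 0.101% in female and 0.0778% in male T cells. Ets1 was highest at 56.8% and 56.6% in T cells and 43.3% and 41.6% in B cells, a difference of 14.2 points that was not called. That value covers only the 5′ end of the gene. The unmethylated Ets1 run at starts of shorter transcripts was at 0.455% and 0.297% in T cells against 27.1% and 22.5% in B cells.

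Inside the genes of this group, more than 2 kb from any start, 399 of 1641 windows (24.3%) were lower in T cells and 37 (2.25%) higher, against 1.65% and 1.19% over all protein-coding genes. Lef1 had 76 of 108 such windows lower in T cells, Bcl11b 57 of 91, Satb1 46 of 73, Ets1 49 of 110, Ikzf1 35 of 73 and Bach2 58 of 324. The group was not uniform. Zeb1, a zinc finger repressor, had 3 of 145 lower and Runx3, the factor of the CD8 lineage, 1 of 45.

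Genes of naive homing and survival had mostly unmethylated promoters as well, 9 of 12, with a median of 5.67% and 0 called. Few calls would be found among 12, since 1.11% of all promoters were lower and 0.712% higher in T cells. Igfbp4 was the lowest at 0.750% and 0.638% in T cells, and Dapl1 the highest at 88.5% and 84.1%. Ccr7, the lymph node homing receptor, was at 7.88% and 8.13% against 22% and 21.7%, short of the 20 points. Il7r, the survival cytokine receptor, was at 38.3% and 35.8% against 51.2% and 48.9%. It failed both limits (adjusted p = 0.228, quasi-binomial F test with limma dispersions). Inside the genes of this group 73 of 445 windows (16.4%) were lower in T cells, against 1.65% over all protein-coding genes, and 15 (3.37%) higher, against 1.19%. Ccr7 had 7 of 9 lower, and the survival gene Bcl2 had 25 of 154 lower and 11 higher.

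Effector and memory genes, which naive cells hold back, had promoters in all 4 classes. Of 21 promoters 3 were unmethylated, 2 low, 8 partly methylated and 8 high, with a median of 59%. The type 2 cytokine genes Il4, Il5 and Il13 were at 88.4% to 93.8% in both T cell data sets, Il17a at 93.5% and 90.6%, and the cytotoxic granule gene Gzmb at 78.6% and 79.7%.

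Against these, Tbx21 and Maf, which encode regulators of effector cells, were at 2.15% and 1.89% and at 0.118% and 0.322%. Of the 21 promoters 2 were lower in T cells, against 1.11% of all promoters. The death ligand gene Fasl was at 22.3% and 21.9% in T cells and 81.9% and 87.5% in B cells (-62.6 points), and Ifng, the type 1 cytokine, at 57.2% and 61.4% against 83.8% and 86.3% (-25.7 points, and -48.3 points where 10 reads per CpG were required). Il2, the first cytokine of activated T cells, was at 58.5% and 59.4% against 72.5% and 72.7% and was not called. Inside the genes of this group 20 of 278 windows (7.19%) were lower in T cells, against 1.65% over all protein-coding genes.

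Lists of genes best known from other cells fell into 2 patterns. Promoters of other tissues were mostly high, 11 of 15, with a median of 84% and 0 called. With 1.11% of all promoters lower and 0.712% higher in T cells, few calls would be found among 15. The collagen gene Col2a1 was lowest at 6.46% and 6.07%, and the glucagon gene Gcg highest at 94.8% and 94.5%. Of 9 germ cell promoters 8 were high, with a median of 94.6%. Brdt, a bromodomain gene of the testis, was at 97.3% and 95.8%, and Dazl, a germ cell RNA-binding protein, was partly methylated at 54.1% and 54.9% in T cells and 53.2% and 63.4% in B cells.

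Developmental regulators were unmethylated in 17 of 20 promoters, with a median of 5.65% and 0 called. Few calls would be found among 20, since 1.11% of all promoters were lower and 0.712% higher in T cells. Pax2, a kidney regulator, was the lowest at 1.81% and 2.72%, and Gata4, a heart and gut regulator, the highest at 33.9% and 26.7%. Within these genes 93 of 261 windows (35.6%) were unmethylated or low, against 1.26% over all protein-coding genes, and 0 were lower in T cells. Inside the genes of other tissues 10 of 278 windows (3.60%) were lower in T cells, all 10 in Mbp, a myelin gene, and inside germ cell genes 7 of 263 (2.66%), against 1.65% over all protein-coding genes. Both the developmental genes and the T cell transcription factors thus held many unmethylated or low windows, and windows lower in T cells were found inside the latter.

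Imprinted genes, whose control regions carry methylation on the chromosome from a single parent, sat near the middle of the scale. Of 17 promoters 10 were partly methylated, with a median of 49.3% and 0 called. Over all promoters 1.11% were lower and 0.712% higher in T cells, so few calls would be found among 17. Peg3 was at 47.3% in female and 46.7% in male T cells, Zrsr1 at 48.3% and 52.2%, and Nespas at 42.6% and 46.2%. Rasgrf1 was the lowest at 3.21% and 3.48%, and Mcts2 the highest at 95.7% and 96.6%. The 2 kb around a gene start need not hold the control region of an imprinted gene.

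Some long partly methylated runs were within a few points of their level in B cells, and some were high in B cells. Runs of adjacent windows with 5 or more CpGs each numbered 84973, and 2 reached 10 kb. The longest, 21 kb at chr1:63249001-63270000 over Gm11608 next to the imprinted gene Zdbf2, was at 49.2% in female and 50.1% in male T cells and at 52.1% and 48.6% in B cells, with 1 of 21 windows called. A run of 9 kb near imprinted Rasgrf1 was at 44.5% and 47.6% against 50.6% and 46.7% with 0 windows called.

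The second longest, 10 kb inside Lef1 at chr3:131145001-131155000, was at 48.1% and 46.5% in T cells and 94.1% and 94.2% in B cells, and all 10 of its windows were called lower in T cells. A run of 8 kb inside Cd247 at chr1:165803001-165811000 was at 58% and 54.5% against 92.8% and 91.6%, with 8 of 8 windows lower. A run of 9 kb over Gm20443 was at 49.5% and 55.4% in T cells and at 57.4% and 59.5% in B cells, with 2 of 9 windows called lower. The Cd247 run tied in length with runs near Tbc1d1, over Traj47 to Traj40 and in Rac2.

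Some genes held many T cell windows that were unmethylated or low inside the gene and lower than in B cells. Of 17425 genes with a window more than 2 kb from a start, 1520 held at least 1 such window, 79 held 5 or more and 22 held 10 or more. Ets1 led with 35 of 110 windows, with means of 8.65% in female and 7.72% in male T cells and 69.1% and 70.03% in B cells. Lef1, Bcl11b and Ptprc had 26 each.

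Ptprc encodes the phosphatase CD45, which both cell types make, and its 26 windows averaged 10.6% and 9.99% in T cells and 64.7% and 65.8% in B cells. Satb1 had 18 windows (9.78% and 8.49% against 91.5% and 91.7%), and the lipid phosphatase gene Inpp4b 17. Cd247 and Prkch, a protein kinase C gene, had 16 each. Gm20388, with 22, is a gene model of 4435 kb that spans other genes, so its count is shared with them.

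**Figure D4:**
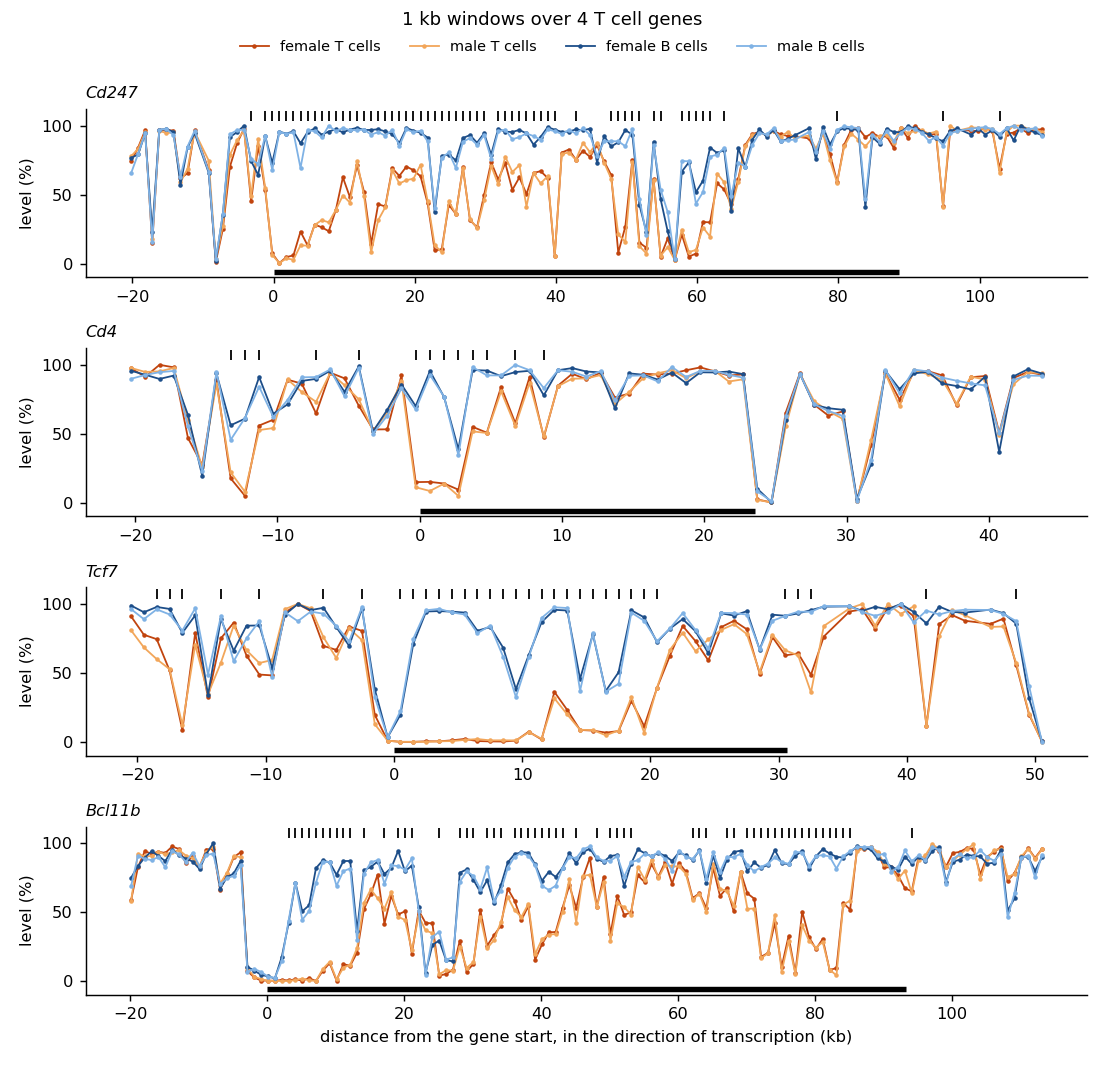
Methylation level in percent (vertical axes) of 1 kb windows over Cd247, Cd4, Tcf7 and Bcl11b against the distance of the window from the gene start in kb, in the direction of transcription (horizontal axes). Lines are the female and male T cell and B cell data, the bar marks the gene, and the ticks mark windows called lower in T cells. The T cell lines lie near 0% over the first part of Tcf7 and Bcl11b and mostly return to the B cell lines past the ends of the genes, with 33 windows lower and 1 higher in T cells at Tcf7 and 58 lower and 2 higher at Bcl11b.

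At single loci the T cell windows lower than in B cells lay on both sides of the start or inside the gene, with windows that were not called between them. Distances are those of the window centres, negative before the start. At Cd4, 13 windows were lower in T cells, from -13.3 kb to 8.72 kb from the start. The window over the start was at 14.9% in female and 11.2% in male T cells against 70.03% and 67.6% in B cells, and the window 2.72 kb inside was at 9.45% and 4.93% against 38.7% and 34.4%. Cd4 is known to have an enhancer upstream of its start. The window at -12.3 kb was at 5.04% and 8.00% against 60.9% and 61.4%.

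At Cd247, a gene of 88.6 kb, 59 windows were lower in T cells, from -3.18 kb to 103 kb from the start, past the end of the gene, and 12 of the windows in and around it were unmethylated in T cells. A single window, 83.8 kb inside, was higher in T cells at 91.7% and 85% against 40.9% and 46.6%. The window 0.819 kb inside was at 0.344% and 0.354% in T cells and 95.7% and 95.3% in B cells, and a separate one 39.8 kb inside was at 5.12% and 5.52% against 97.1% and 96%. At Tcf7, every window from 0.514 to 20.5 kb inside was lower in T cells, and an isolated window 41.5 kb from the start, past the end of the gene, was at 11.7% and 11.5% against 85.9% and 95.2%. One window, at -12.5 kb, was higher in T cells at 86.4% and 84.3% against 66.1% and 58.5%.

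At Bcl11b, a group of windows near the far end, 72.1 to 83.1 kb from the start, included one at 5.88% and 5.09% in T cells against 90.8% and 93.7% in B cells. The 2 windows higher in T cells lay 23.1 kb inside, at 42.1% and 36.7% against 5.72% and 4.44%, and at 108 kb, past the end of the gene, at 72.6% and 75.3% against 51.1% and 46.2%.

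Averaged over 62 genes of the receptor, signalling, surface, factor and naive groups, the profile was lopsided around the start in both cell types. At 0.1 kb after the start the mean level over CpGs was 3.09% in female and 3.34% in male T cells and 9.51% and 9.47% in B cells. At 4.9 kb after the start it was 42.1% in both T cell data sets against 64.4% and 66.1%, whereas at 4.9 kb before the start it was 70.4% and 70.2% against 75% and 76%. Before the start the order of the cell types was not constant, and at 5.7 kb before it T cells were at 80.9% and 80.4% against 75.7% and 76.9%. Over all 20779 protein-coding genes the profile was 77.2% at 4.9 kb on either side in both T cell data sets, except 77.1% before the start in male cells.

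**Figure D5:**
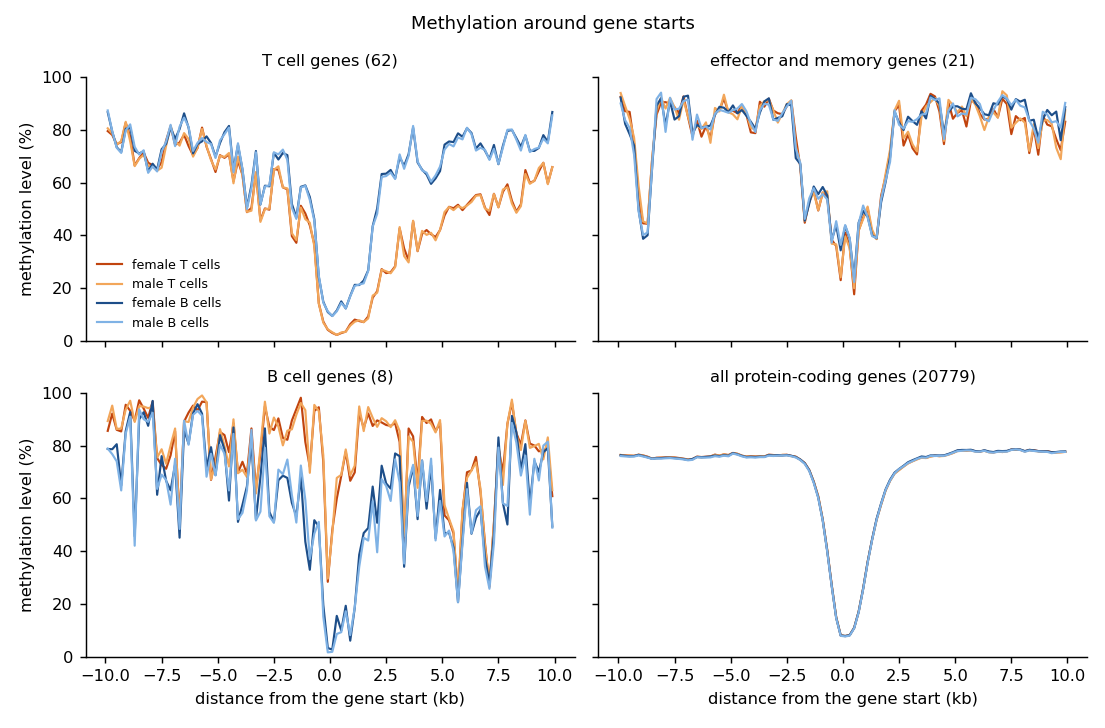
Mean methylation level over CpGs in percent (vertical axes) against the distance from the gene start in kb, in the direction of transcription (horizontal axes), for T cell genes (62), effector and memory genes (21), B cell genes (8) and all protein-coding genes (20779). Lines are the female and male T cell and B cell data. For T cell genes the T cell lines stay below the B cell lines for 10 kb inside the gene, with 65.9% against 86.8% and 85.5% at 9.9 kb, and for all genes the 4 lines lie on each other.

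The promoters of other blood lineages were used to check the T cell label. Of 8 B cell promoters 7 were higher in T cells and 0 lower, against 0.712% and 1.11% of all promoters. The median T cell level was 72.3%. Ms4a1 (CD20) was at 93.6% in female and 93.5% in male T cells and 10.5% and 15.3% in B cells, and Cd79a, a chain of the B cell receptor, at 83.4% and 79.3% against 10.5% and 17%. Fcer2a (CD23) was at 88.1% and 81.6% against 44.1% and 41.2%. Blk, a B cell kinase, was at 53.1% and 54.3% against 16.1% and 20.1%, and its difference was 12.1 points, short of 20, within 500 bp of the start.

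Of the 6 genes of CD8 T and natural killer cells, both CD8 chains, 2 of the 6, were lower in T cells than in B cells, against 1.11% of all promoters. Cd8b1 was at 40.6% and 38.5% against 89.98% and 89.7%, and Cd8a at 67% and 70.9% against 89.5% and 90.3%, although cells carrying CD8a had been depleted. The Cd8a difference of -20.9 points was -19.3 points, short of 20, where 10 reads per CpG were required, and -34.5 points within 500 bp of the start. Ncr1, a natural killer receptor, was at 88.1% and 87.2% in T cells. Inside the genes of this group 7 of 36 windows (19.4%) were lower in T cells and 1 (2.78%) higher. Over all protein-coding genes the shares were 1.65% and 1.19%.

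Among 5 autosomal genes of regulatory T cells, Il2ra (CD25) was at 15.9% and 12.2% against 28.4% and 41% (-20.7 points), Ctla4 at 92.1% and 84.2%, and Ikzf2 at 0.175% and 0.0785% with B cells as low. Inside these regulatory T cell genes 12 of 209 windows (5.74%) were lower in T cells and 2 (0.957%) higher, against 1.65% and 1.19% over all protein-coding genes. The 8 myeloid promoters had a median of 74.8%, from Cd14 at 12.7% and 13.8% to Csf1r at 91.8% and 93%. The 7 erythroid and platelet promoters had a median of 54.1%, from Klf1 at 22.7% and 24.1% to Hbb-bs at 96.9% and 95.2%. In both lists 0 promoters were called, where 1.11% of all promoters were lower and 0.712% higher in T cells, so few calls would be found among so few genes. Shares of other cells were not estimated from these levels, and the part of such cells in the results was not tested.

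Windows low or unmethylated in T cells and lower than in B cells held several DNA words at shares unlike those of all tested windows. Exact words standing for known motifs were searched on both strands in windows more than 2 kb from any start, 4149 low or unmethylated ones lower in T cells and 1807730 tested windows in all. The RUNX word TGTGGTT was in 38.3% of the former and 21.7% of the latter. The ETS word ACAGGAAG was in 19.4% against 9.09%, and the TCF and LEF word CTTTGAA in 29.5% against 23.5%. In the 15792 low or unmethylated windows that were not called, the shares were 27% for RUNX, 17.1% for ETS and 22.3% for TCF and LEF. In the 16020 windows higher in T cells they were 25%, 13.7% and 22.5%.

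The words of other families gave the following shares. The GATA word AGATAAG was in 16.2% against 13.7% and the AP-1 word TGACTCA in 18.7% against 15.5%. The consensus of the B cell factor EBF was in 1.28% against 1.81%, and in 8.202% of the 16020 windows higher in T cells. In the low or unmethylated windows that were not called, the shares were 12.7% for GATA, 16.5% for AP-1 and 3.13% for EBF. The PU.1 word GAGGAAGT was in 9.88% against 6.01%, and in 12.2% of the low or unmethylated windows that were not called. Windows higher in T cells held the GATA word in 11.4%, the AP-1 word in 17.8% and the PU.1 word in 11.2%. The AP-1 and PU.1 words were thus above the share of all tested windows in windows changed in either direction. The CTCF consensus was in 0.0241% against 0.0667%, and in 0.741% of the low or unmethylated windows that were not called. A share of 0.0241% of 4149 windows is at the floor of what that set can show, so no difference is read from it. GC content was 45.2% in the called low or unmethylated windows, 48.7% in those not called and 42.6% in all, and 4.60%, 2.82% and 19.1% of the windows were mostly repeat-masked. The part of either was not tested.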

How the data were processed

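Whole-genome bisulfite sequencing of 8 samples in 4 groups of 2 (female and male T and B cells) was used. Both samples of a group share 1 data file, and whether it merges them is not stated. The submitters' processing notes name Trim Galore, FastQC, Bismark 0.13.1 and mm10. The authors deposited, for each CpG with strands merged, its methylated fraction and its read count, 5 or more at every entry. Multiplied, they gave whole methylated reads in 100% of entries, to a tolerance of 0.00101 on the fraction. Positions, counted from 0 in the deposited files, were converted to count from 1 and lay on CpGs of the GRCm38 reference. Autosomal reads numbered 278275973 to 339923001 per file, and mitochondrial CpGs, which should lack methylation, read as 0.172% to 0.447% methylated.

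Reads of both T cell files were summed per 1 kb window. T and B cells were compared with a quasi-binomial logistic model (terms cell type and sex, 1 residual degree of freedom) in Python 3.11.15, dispersions were squeezed with limma 3.58.1 in R 4.3.3, and p-values were adjusted by Benjamini-Hochberg over all windows or all promoters. The window prior had no finite degrees of freedom, so window tests rest on an average dispersion of 1.31, and window p-values are not printed. That average is below the values found between the T cell files in unmethylated (1.90), low (2.36) and partly methylated windows (1.72). The promoter prior had 8.79 degrees of freedom. The study pooled the cells of several animals for each replicate. With a single file per sex and cell type, p-values measure only the spread between these files. The window procedure was also run on simulated data, with a dispersion set near the average of 1.31. That simulation could not show how the calls behave where the dispersion is higher. Genes and starts were of GENCODE M21 (basic), and a promoter spans 1 kb to either side of the start. The members and gene lists were chosen with earlier results of these data known. Named were Cd3d, Cd3e, Cd247 and Cd4, in each list the called promoters (at most 5 with the largest difference, or the lowest and highest where fewer than 2 were called), the 8 longest unmethylated runs and those tied with them, the 8 genes with most internal windows, the 5 longest partly methylated runs, the 5 lowest and highest bins and 5 low windows. Some genes that this rule names are not reported here. Other genes named as examples were chosen after their values were seen. Sequences are from RefSeq tables and the GRCm38.p6 genome. Promoter sequences were matched by symbol for Cd3d, Cd3e, Cd3g and Cd247, and Cd4 is named only. Alternatives covered read minimum, CpG minimum, class limits, window offset, dispersion prior, difference size, Fisher's exact test, the sex term, promoter size and leaving out each file.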

Additional observations from a re-analysis of the deposited data

Results flagged for a closer look

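The T minus B difference of 5 of the 43 promoters chosen by the naming rule had opposite signs in the 2 sexes, with a single file per sex and cell type. The difference between the sexes was not tested. It was -0.751 points in female and 1.81 points in male cells at Col2a1, 0.930 and -8.47 at Dazl, -0.894 and 0.100 at Rasgrf1, -1.32 and 1.502 at Pax2, and -0.946 and 3.14 at Klf1. None of these promoters was called between the cell types.

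The X chromosome lay outside the comparisons. Its CpGs were methylated at 82.4% in female and 82.1% in male T cells, and at 82.7% and 82.3% in female and male B cells. A check for single outlying samples was not possible with 1 file per group.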

How the results depend on the processing

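Requiring 10 reads per CpG gave a T cell level of 79% in place of 79.5%, and averaging over CpGs gave 80.6%. With class limits of 20, 40 and 60%, partly methylated windows numbered 51217 in place of 128564. Windows lower in T cells numbered 44890 with a limit of 10 points, 12038 with 30 points and 15303 with a dispersion prior from all windows, in place of 23209, and windows higher in T cells 39152, 8722 and 11805 in place of 18222. Leaving out 1 file at a time gave T cell levels of 79.48% to 79.60%, 25789 to 25955 unmethylated, 24594 to 24713 low and 133422 to 134713 partly methylated windows, and 22500 to 23329 lower and 17753 to 18702 higher windows. Under Fisher's exact test in each sex the counts were 19754 and 15305. Promoters lower and higher in T cells numbered 397 and 303 within 500 bp of the start in place of 331 and 213. Of the named promoters, 3 fell short of 20 points under an alternative, Txk (-16.9) and Cd8a (-19.3) with 10 reads per CpG and Blk (12.1) within 500 bp, and 1 named promoter had no value under each of these alternatives. The cause was not tested. No paired analysis was possible because each group has 1 file and the replicate numbers differ between groups. Depth limits the classes of windows with few CpGs, and CpGs under 5 reads were not analysed here.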

Other observations

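The T cell receptor loci, which are cut and rejoined in the thymus, had fewer T cell reads than the autosomal mean in some segments and not in others, such as Trac, where depth was 1.13 in female and 0.998 in male T cells. Depth was taken as reads per reference CpG over the autosomal mean of the same file, with CpGs under 5 reads counted as 0, so that it is understated where reads are few. Over the D, J and C segments of the delta locus, which lies within the alpha locus, it was 0.0998 in female and 0.0827 in male T cells and 0.827 and 0.776 in B cells.

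Across the 51 alpha J segments T cell depth and T cell methylation differed by position. In the 17 segments farthest from the constant gene Trac, Traj59 to Traj40, depth was 0.622 and 0.493 in T cells and 1.17 and 1.13 in B cells, and the level was 63.8% and 61.3% against 88.1% and 89.97%. In the middle 17, depth was 0.728 and 0.645 and the level 34.8% and 34.7%, against 92.6% and 91.7% in B cells. In the 17 nearest Trac, Traj21 to Traj2, depth was 1.03 and 0.960 and the level 13.3% and 13.7%, against 93.6% and 93.1%. T cell levels were thus lower the nearer the segments lay to Trac, and B cell levels were not.

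Over the D, J and C segments of the beta locus depth was 0.515 and 0.502 in T cells and 1.11 and 1.07 in B cells, and the level 2.12% and 2.70% against 84.6% and 81.7%. These values were looked at with the levels already known, and no test was made.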
